A study of Mus musculus with 9 samples.

Results

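The genes described here are 10 components of the circadian clock, Arntl, Clock, Npas2, Per1, Per2, Per3, Nr1d1, Nr1d2, Dbp and Tef, taken by symbol from the 23951 genes of each deposited expression table. All 10 were present in both tables, and all 10 had a mean of at least 1 FPKM (fragments per kilobase of transcript, scaled to the mapped fragments of the library) over the 6 libraries of each table. RNA was sequenced from crypts of the mouse jejunum, the middle part of the small intestine, in 3 groups of 3 libraries. The first mutant group, named Smad4 KO here, was Smad4f/f;Villin-CreER(T2), in which tamoxifen activates a Cre recombinase driven by the Villin promoter, which is active in intestinal epithelium, and Cre deletes Smad4, a transcription factor of the BMP and TGF-beta pathways. The second, the double mutant, was Smad4f/f; Ex3f/+;Villin-CreER(T2), which also carries the Ex3 allele that gives a stabilised beta-catenin, the effector of Wnt signalling. Both mutant groups received tamoxifen daily for 4 consecutive days, and crypts were taken 1 day after that. The controls are labelled control mouse with vehicle as treatment in the sample labels, and uninjected in the design text. Tamoxifen, active Cre and the deletions therefore cannot be told apart from one another in any comparison with the controls. Strain, age and the time of day of collection are not given in the sources used here, nor whether each library of a group is from its own mouse. If not, the p-values measure only the spread between these libraries, which may be technical.

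The circadian clock is a loop of transcription factors that runs in nearly every cell, including the intestinal epithelium, where it is known to be set by feeding as well as by signals from the brain. Arntl (also called Bmal1) pairs with Clock or its relative Npas2, and the pair binds E-box sequences and switches on the Per, Cry, Nr1d1, Nr1d2, Dbp and Tef genes. PER and CRY proteins then inhibit the pair, and the nuclear receptors encoded by Nr1d1 and Nr1d2 (REV-ERB alpha and beta) bind RORE sequences and repress Arntl. Dbp and Tef are PAR bZIP factors that bind D-box sequences and carry the rhythm to output genes. In a rhythmic tissue the transcripts of Arntl and Npas2 peak at times of day opposite to those of Nr1d1, Dbp and the Per genes, whereas Clock varies little. In what follows, Arntl, Clock and Npas2 are called the activators, and the other 7 genes the repressor-phase genes.

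The promoter sequences are shown because clock proteins act on one another's genes through short sequences near the start sites. RefSeq (GRCm38.p6) gave a promoter entry for 9 of the 10 genes, with 14 start sites in all, and the 250 bases before each start were searched on both strands. The letters searched were CACGTG (the E-box), CACGTT (an E-box variant), TTATGTAA and TTACGTAA (D-boxes) and AGGTCA (the core of the RORE), and none of these strings is contained in another. At least 1 of them was found for 6 genes, in 7 of the 14 entries, and the share of all entries with any of them was not counted. The E-box was found for 2 of the 9 genes, Per1 and Tef. It was in 3 of the 14 entries, and in 6.02% of all 32851 promoter entries. CACGTT was in 3.85% of entries, TTATGTAA in 0.819%, TTACGTAA in 0.113% and AGGTCA in 14.0%. The windows of 4 genes are printed 5′ to 3′ on the gene's own strand, with the matched letters in capitals, because each shows a different kind or number of matches and Nr1d1 is the gene on which the results turn. Nr1d1, at chr11:98775378-98775627 on the minus strand, holds CACGTT read from the other strand, at bases -28 to -23 from the start. Bases shortly after this start were found in 0 GENCODE transcripts of Nr1d1, on either strand, so its position rests on RefSeq alone. Tef, at chr15:81802423-81802672 on the plus strand, holds the E-box at bases -127 to -122. Per1, at chr11:69098699-69098948 on the plus strand, holds the E-box at bases -166 to -161 and AGGTCA, read from the other strand, at bases -137 to -132. Per3, at chr4:151044666-151044915 on the minus strand, holds TTATGTAA at bases -205 to -198 and again at bases -158 to -151.
Nr1d1: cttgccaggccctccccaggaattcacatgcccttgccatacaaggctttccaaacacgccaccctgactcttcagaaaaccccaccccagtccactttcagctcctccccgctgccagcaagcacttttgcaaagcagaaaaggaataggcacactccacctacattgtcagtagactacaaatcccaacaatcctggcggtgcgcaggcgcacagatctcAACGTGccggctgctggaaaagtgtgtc
Tef: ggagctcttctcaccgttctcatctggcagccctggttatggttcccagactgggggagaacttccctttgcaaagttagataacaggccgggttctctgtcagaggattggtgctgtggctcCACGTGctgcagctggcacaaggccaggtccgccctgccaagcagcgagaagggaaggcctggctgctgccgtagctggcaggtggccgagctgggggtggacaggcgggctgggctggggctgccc
Per1: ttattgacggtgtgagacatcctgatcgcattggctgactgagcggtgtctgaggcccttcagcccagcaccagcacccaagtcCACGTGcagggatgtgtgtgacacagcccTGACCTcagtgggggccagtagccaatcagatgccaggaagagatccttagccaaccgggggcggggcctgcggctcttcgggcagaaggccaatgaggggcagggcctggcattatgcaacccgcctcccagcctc
Per3: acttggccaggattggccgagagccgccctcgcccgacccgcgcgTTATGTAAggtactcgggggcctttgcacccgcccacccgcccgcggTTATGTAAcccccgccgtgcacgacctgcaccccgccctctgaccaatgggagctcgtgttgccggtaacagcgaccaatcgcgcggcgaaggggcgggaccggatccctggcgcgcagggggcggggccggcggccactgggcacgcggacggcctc
Further matches were the E-box at the other start of Tef (bases -138 to -133), AGGTCA before Nr1d2 (bases -77 to -72) and AGGTCA, read from the other strand, before 1 of the 3 starts of Clock (bases -119 to -114). None of the 5 strings was in the windows of Arntl, Npas2 or Dbp. A match describes letters in a window and is not a measured binding site.

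The libraries were described before the clock genes were compared. Each table holds FPKM values made from the same 3 control libraries and 3 libraries of 1 mutant group, normalized separately, so that the control values of the second table are 1.03, 1.06 and 1.04 times those of the first for controls 0, 1 and 2. Absolute depth is unknown, and the number of genes at 1 FPKM or more was between 11196 and 11935 per library. Smad4 itself was at 49.8 ± 5.02 FPKM (SD, n = 3) in controls and 10.6 ± 0.560 in Smad4 KO (log2 fold change -2.13, limma adjusted p = 0.00664), and at 52.0 ± 5.96 against 10.4 ± 0.640 in the double mutant table (-2.21, limma adjusted p = 0.00176). Fold changes here are differences of log2(FPKM + 1), a scale on which changes of low genes look smaller than they are. Adjusted p-values are Benjamini-Hochberg values over all genes tested, with 0.05 as the threshold. All 8 epithelial markers were present, with a summed level between 2331 and 3808 FPKM in the first table and between 2626 and 3583 in the second. The 5 crypt stem cell markers summed to 667 to 1541 FPKM in controls of the first table and 281 to 1134 in Smad4 KO. The 281 was Smad4 KO 0, and 3 of the 5 were lower on average in Smad4 KO. In the second table the sums were 695 to 1633 FPKM in controls and 911 to 1541 in the double mutant, with 5 of 5 higher on average. Enterocyte genes, which belong mainly to the villus, varied much more. The sum of 10 enterocyte markers was 3846, 5184 and 10883 FPKM in controls 0, 1 and 2, and the Smad4 KO libraries 0, 1 and 2 had 14562, 1103 and 2308, with 7 of the 10 lower on average in Smad4 KO. In the second table it was 3966, 5493 and 11351 FPKM in the control libraries and 1168, 2276 and 2177 in the double mutant, with 10 of 10 lower. Stromal markers (9 genes) summed to at most 1.92 FPKM in controls of the first table, whereas Smad4 KO 2 had 69.9, Smad4 KO 0 had 10.4 and double mutant 0 had 44.8. Enteroendocrine markers (6 genes) were 6 of 6 higher in Smad4 KO, with sums of 253 to 384 FPKM against 156 to 203, and 6 of 6 higher in the double mutant, with overlapping sums of 202 to 349 against 165 to 212. Tuft cell markers (4 genes) were 4 of 4 lower in both, at 9.90 to 15.0 FPKM in Smad4 KO against 16.0 to 42.0, and at 9.36 to 17.0 in the double mutant against 16.7 to 43.3. The Paneth cell marker sum was 9238 FPKM in Smad4 KO 0, against 48780 to 129829 in the other libraries of its table. Of the 6 Paneth cell markers, 4 were lower on average in Smad4 KO and 6 in the double mutant. The double mutant sums of 27459 to 81181 FPKM overlapped the 50879 to 133872 of its controls. Immune markers (7 genes) summed to 9.59 to 69.9 FPKM in Smad4 KO against 25.8 to 63.3, with 5 of 7 lower on average. In the double mutant they summed to 10.9 to 31.8 FPKM against 27.3 to 66.1, with 6 of 7 lower. Red blood cell markers (3 genes) reached 38.9 FPKM in Smad4 KO 2 and 27.1 in double mutant 0, against at most 4.66 and 4.80 in the controls of these tables. No marker of these lists was at 0 in all libraries of a table. The part of these differences in the clock gene results was not tested, apart from the values set beside the results.

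In control crypts, Nr1d1 was the highest of the 10 genes and Npas2 the lowest (FPKM is scaled by transcript length, so levels can be ordered between genes). In the first table the control means were 37.8 ± 16.7 FPKM for Nr1d1 (SD, n = 3), 18.4 ± 2.18 for Nr1d2, 15.8 ± 5.57 for Tef and 15.1 ± 1.71 for Clock. Per1 at 11.3 ± 2.22 and Arntl at 11.3 ± 4.28 followed, then Dbp at 8.24 ± 5.19, Per2 at 7.29 ± 2.82, Per3 at 4.74 ± 2.52 and Npas2 at 4.60 ± 1.10. Only 2 neighbours in this order had control ranges that did not overlap, Nr1d1 with Nr1d2 and Clock with Per1. The order of the rest is within the spread of the controls. Nr1d1 overlaps Thra in RefSeq's annotation, and the library kit does not mark strand. The level of Nr1d1 may therefore include reads of Thra, whose values are given below.

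**Figure D1:**
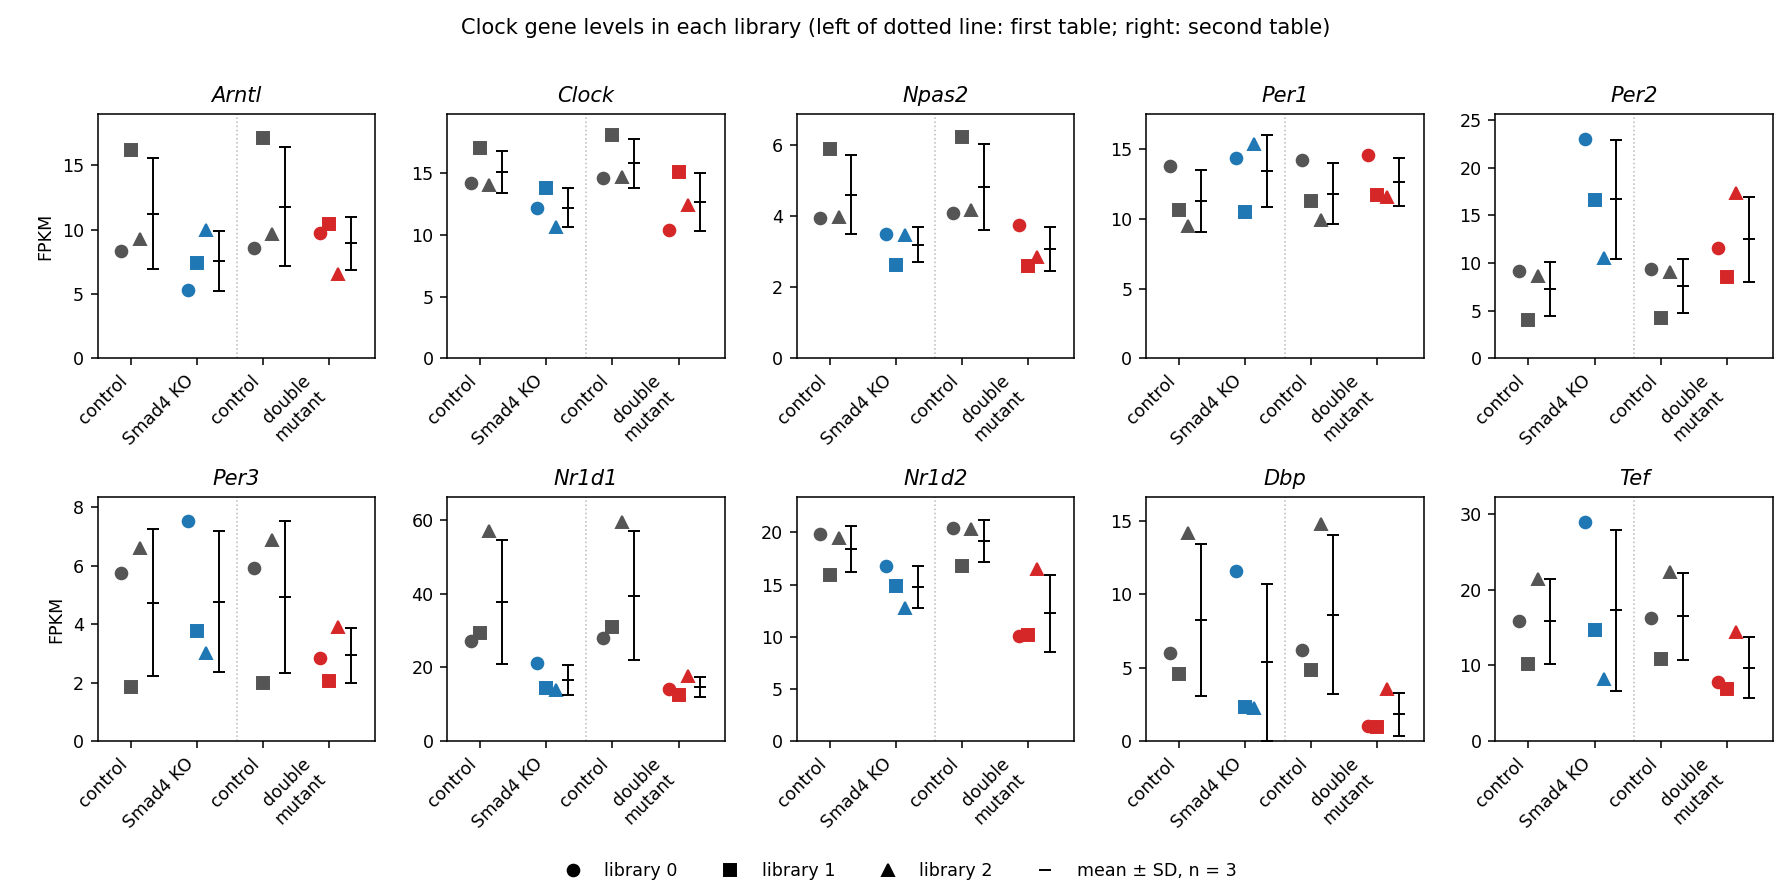
Level of each clock gene in FPKM (y axis, linear, from 0) in every library, with control and Smad4 KO libraries of the first table to the left of the dotted line and control and double mutant libraries of the second table to the right; symbols mark the library number, and the bars are mean ± SD (n = 3). All 3 Nr1d1 values of each mutant group lie below all 3 controls, and in both tables control 1 is the highest control for Arntl, Clock and Npas2.

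The clock genes spread more between libraries of 1 group than the median gene did. The median within-group SD of log2(FPKM + 1) over the 10 genes was 0.49 in controls, 0.36 in Smad4 KO and 0.33 in the double mutant, against 0.18, 0.21 and 0.14 over all genes tested. Among controls the ratio of the highest to the lowest library was 3.53 for Per3, 3.12 for Dbp, 2.26 for Per2 and 2.11 for Nr1d1, but 1.21 for Clock. Within Smad4 KO it reached 5.16 for Dbp and 3.54 for Tef, and within the double mutant 3.66 for Dbp.

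Several genes shared the library in which they were high or low. Control 1 had the highest level of all 3 activators and the lowest of 5 of the 7 repressor-phase genes, namely Per2, Per3, Nr1d2, Dbp and Tef, while the highest control for the repressor-phase genes was control 2 for 4 of them and control 0 for 3. Smad4 KO 0 was highest of its group for 6 of the 7 repressor-phase genes, all but Per1, and Smad4 KO 2 was lowest for 6 of the 7. Double mutant 2 was highest of its group for 6 of the 7, all but Per1. The share of all genes that were highest or lowest in each library was not counted, so these orders may not be particular to clock genes. Smad4 KO 0 also stood apart in cell markers, with an enterocyte sum of 14562 FPKM and a Paneth cell sum of 9238. The part of these markers in the library orders was not tested. No mutant library was highest of its group for all 3 activators. Double mutant 1 was highest of its group for 2 of the 3, Arntl and Clock, and lowest for Npas2. It was also lowest for 5 of the 7 repressor-phase genes, namely Per2, Per3, Nr1d1, Dbp and Tef. Arntl was lowest in Smad4 KO 0 and in double mutant 2, Clock in Smad4 KO 2 and double mutant 0, and Npas2 in library 1 of both groups, with Smad4 KO 0 its highest Smad4 KO library. The mean log2(FPKM + 1) of the 7 repressor-phase genes minus that of the 3 activators was 0.57, -0.49 and 0.84 in controls 0, 1 and 2 of the first table, and the Smad4 KO libraries had 1.27, 0.43 and 0.11 in the same order. In the second table it was 0.57, -0.50 and 0.84 in controls and -0.04, -0.31 and 0.65 in the double mutant. The ranges of the mutant groups overlap that of the controls in both tables, and no test was made of this difference, which is a description. No time of collection is given for any library, so a difference in clock phase between libraries and a difference between genotypes cannot be told apart for any of the 10 genes.

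**Figure D2:**
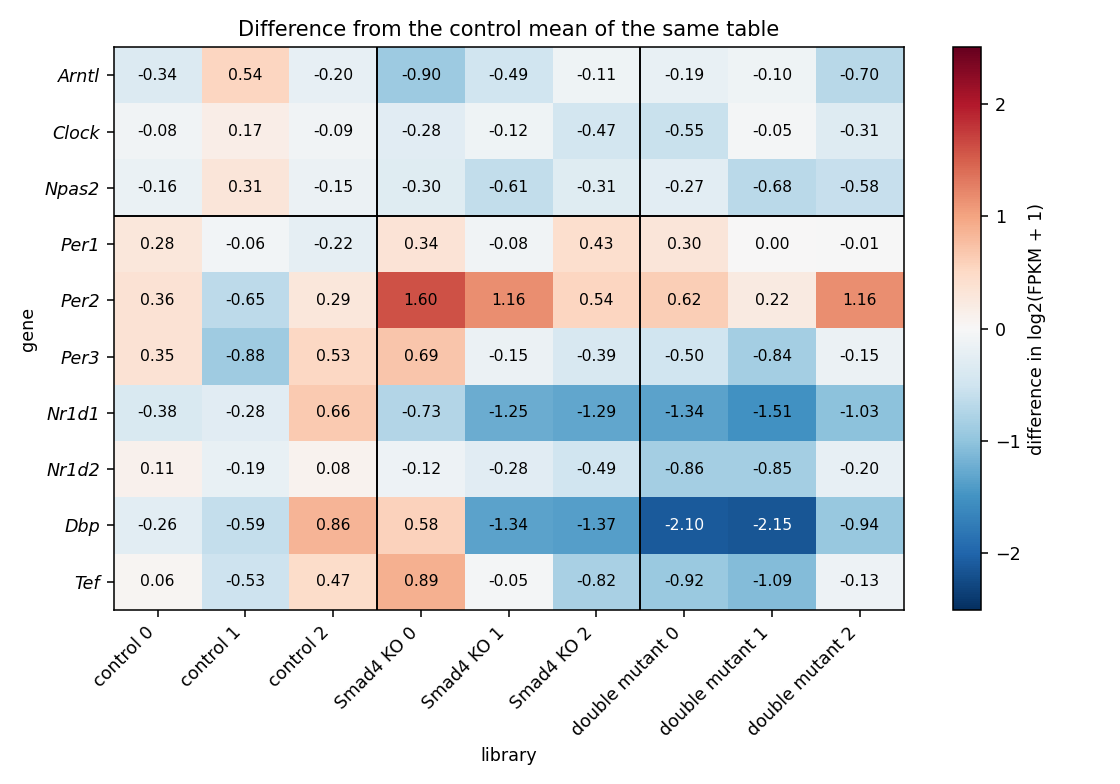
Deviation of each clock gene (rows) in each library (columns) from the mean of the 3 controls of its own table, in log2(FPKM + 1) units, with the controls shown as in the first table; the colour scale runs from lower than to higher than the control mean. Control 1 is higher than the control mean for the activators and lower for every repressor-phase gene, though only slightly for Per1 (-0.06). Arntl, Clock, Npas2, Nr1d1 and Nr1d2 are lower in all 6 mutant libraries.

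Of the 10 genes, 1 passed the limma test in the double mutant, Nr1d1, which fell, where 18.5% of all 11762 genes passed, 9.39% of all genes higher and 9.09% lower. An unadjusted p below 0.05 was found for 4 of the 10 (Nr1d1, Dbp, Nr1d2 and Npas2) and for 36.6% of all genes. For the same 4 genes all double mutant libraries lay below all controls, against 42.6% of all genes without overlap in either direction and 21.3% lower. For the Smad4 KO comparison the limma test passed 0 of the 10, where 0.0338% of all 11849 genes passed (0.00844% higher and 0.0253% lower). An unadjusted p below 0.05 was found there for Nr1d1 and Per2, 2 of the 10, and for 19.1% of all genes. The groups did not overlap for 4 of the 10 (Clock, Npas2 and Nr1d1 lower, Per2 higher), against 26.4% of all genes. The median log2 fold change of the 10 genes was -0.29 in Smad4 KO and -0.50 in the double mutant, where that of all genes was -0.0032 and -0.0013. Nothing particular to the list is read from these counts, and the genes are described 1 by 1. With 3 libraries against 3, an exact permutation test of a single gene cannot give a p below 0.1, and it gave 0.1 for each gene whose groups did not overlap.

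Nr1d1, which encodes REV-ERB alpha, fell in the double mutant, where it was the 1 clock gene called. It was at 27.9, 30.9 and 59.5 FPKM in controls 0, 1 and 2 of the second table and at 14.1, 12.4 and 17.7 in double mutant 0, 1 and 2. All 3 double mutant libraries lie below the lowest control, and control 2 stands well above the other two controls. The mean fell from 39.5 ± 17.4 to 14.7 ± 2.71 FPKM (SD, n = 3), or 37.4% of control, with a log2 fold change of -1.29 (SE 0.30, 95% interval -2.02 to -0.57, limma adjusted p = 0.0356). In bulk crypt RNA, fewer cells that express a gene and less RNA per cell cannot be told apart. The enterocyte marker sum was likewise lower in all 3 double mutant libraries (1168 to 2276 FPKM) than in the lowest control (3966), and its part in this or any other double mutant result was not tested. The call was kept without control 0 (limma adjusted p = 0.0366) and without control 2 (0.0363), the highest control. It was lost without control 1 (0.0605), without double mutant 0 (0.101), 1 (0.0900) or 2 (0.0961), and with no filter on low values (0.0623). The log2 fold change was between -1.49 and -0.96 when 1 library was left out. The smallest change, -0.96, was the one without control 2.

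In Smad4 KO the Nr1d1 values were also below the controls, without passing the test. Nr1d1 was at 27.1, 29.2 and 57.1 FPKM in controls of the first table and at 21.2, 14.4 and 13.9 in Smad4 KO 0, 1 and 2. The groups do not overlap, and the Smad4 KO mean was 43.7% of control (16.5 ± 4.04 against 37.8 ± 16.7 FPKM). The log2 fold change was -1.09 (SE 0.32, limma adjusted p = 0.177). Both comparisons use the same 3 control libraries, so they are not independent of each other, and the mutant groups were not tested against each other. The enterocyte marker sum was lower than in every control in Smad4 KO 1 and 2 and was the highest of the table in Smad4 KO 0, where Nr1d1 was at 21.2 FPKM, below the lowest control. The part of these markers in the Smad4 KO result was not tested.

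Nr1d1 overlaps Thra in RefSeq's annotation. Thra is a thyroid hormone receptor gene transcribed from the opposite strand, and the library kit does not mark strand, so reads from the overlap cannot be told apart. Thra was at 31.0, 44.6 and 49.9 FPKM in the control libraries and 18.3, 24.3 and 21.5 in the double mutant, 51.1% of control, and it fell too (log2 fold change -0.92, SE 0.20, limma adjusted p = 0.0306). In Smad4 KO it was at 20.1, 23.1 and 19.7 FPKM against 30.1, 42.1 and 47.9 (-0.88, limma adjusted p = 0.124). In both tables the mutant ranges of Thra lie below the control ranges, as those of Nr1d1 do.

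Nr1d2, which encodes REV-ERB beta and acts alongside Nr1d1, did not pass the test in either mutant. It was at 20.4, 16.8 and 20.3 FPKM in the control libraries and 10.1, 10.1 and 16.5 in the double mutant. The groups do not overlap, although double mutant 2 comes close to control 1. The mean was 63.8% of control, with a log2 fold change of -0.64 (SE 0.20, limma adjusted p = 0.0732). In Smad4 KO it was at 16.8, 14.9 and 12.7 FPKM against 19.8, 15.9 and 19.4, and the groups overlap (-0.30, SE 0.14, limma adjusted p = 0.316).

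**Figure D3:**
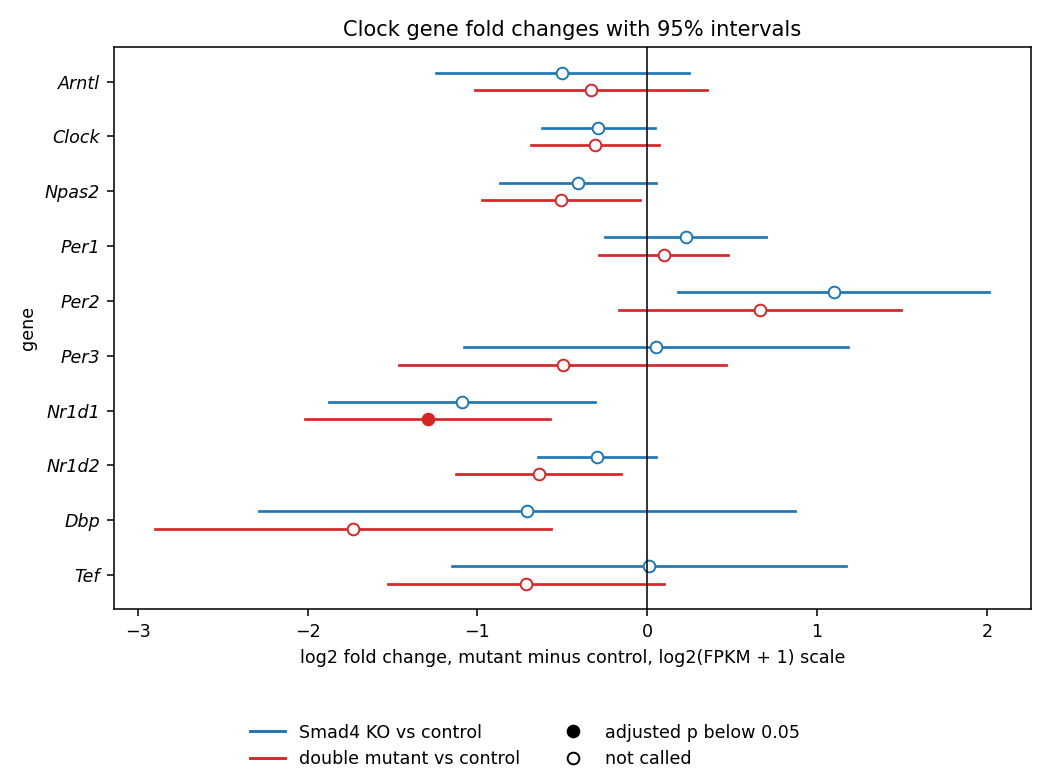
Log2 fold change of each clock gene, mutant minus control, on the log2(FPKM + 1) scale (x axis), for Smad4 KO and for the double mutant, with 95% intervals from limma (3 libraries per group); a filled point has an adjusted p below 0.05. Nr1d1 in the double mutant, at -1.29, is the 1 filled point, and the intervals of Dbp are the widest.

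Dbp, the PAR bZIP factor whose transcript is among the most rhythmic known, had the largest log2 fold change of the 10 genes in the double mutant and just missed the threshold. It was at 6.17, 4.82 and 14.8 FPKM in the control libraries and at 1.03, 0.963 and 3.53 in double mutant 0, 1 and 2. Every double mutant library lies below every control, while the controls themselves spread widely. The mean was 8.59 ± 5.41 FPKM against 1.84 ± 1.46, or 21.4% of control, with a log2 fold change of -1.73 (SE 0.48, 95% interval -2.90 to -0.57, limma adjusted p = 0.0537). It passed the threshold with a pseudocount of 0.1 (limma adjusted p = 0.0475) and after quantile normalization (0.0499). It did not pass with a pseudocount of 5 (limma adjusted p = 0.0715) or with no filter on low values (0.0943). It passed in 0 of the 6 fits that left out 1 library (limma adjusted p from 0.0658 to 0.147). In Smad4 KO, Dbp was at 11.5, 2.31 and 2.24 FPKM against 5.98, 4.55 and 14.2. Smad4 KO 0 lies among the controls and the other two Smad4 KO libraries below them, and the log2 fold change was -0.71 (SE 0.65, limma adjusted p = 0.581). It was -1.36 without Smad4 KO 0 (limma adjusted p = 0.177) and between -0.39 and -0.28 without Smad4 KO 1, Smad4 KO 2 or control 2. Smad4 KO 0 is also the library with the highest enterocyte sum of the first table, as control 2, the highest control for Dbp, is among the controls of both tables. Dbp overlaps Sphk2, a sphingosine kinase gene, which had a log2 fold change of -0.39 in the double mutant (limma adjusted p = 0.163) and -0.31 in Smad4 KO (0.430).

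Tef, the other PAR bZIP gene of the set, overlapped between groups in both tables. It was at 16.3, 10.8 and 22.3 FPKM in the control libraries and 7.87, 6.89 and 14.4 in the double mutant. Double mutant 0 and 1 lie below the controls and double mutant 2 among them, with a mean of 59.0% of control (log2 fold change -0.71, SE 0.34, limma adjusted p = 0.179). In Smad4 KO it was at 28.9, 14.6 and 8.17 FPKM against 15.8, 10.2 and 21.3. Smad4 KO 0 lies above all controls and Smad4 KO 2 below all of them, so that the log2 fold change of 0.01 (SE 0.47, limma adjusted p = 0.995) averages over a wider spread than that of the controls.

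Per2, a repressor of the Arntl and Clock pair, had higher values in both mutant groups and passed the test in neither. It was at 9.13, 4.05 and 8.69 FPKM in the control libraries and 23.0, 16.6 and 10.5 in Smad4 KO. All 3 Smad4 KO libraries lie above all 3 controls, with a ratio of means of 2.29 and a log2 fold change of 1.10 (SE 0.37, limma adjusted p = 0.206). Its double mutant values were 11.6, 8.58 and 17.4 FPKM against 9.42, 4.29 and 9.07 in controls, and the groups overlap because double mutant 1 lies below controls 0 and 2. The ratio of means there was 1.65 (log2 fold change 0.67, SE 0.34), with a limma adjusted p of 0.212. It became 0.35 without control 1 (limma adjusted p = 0.430) and 0.42 without double mutant 2 (0.479). Per2 thus had the opposite sign to Nr1d1, Nr1d2 and Dbp in both comparisons.

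Per1 and Per3, the other two Per genes, differed little from the controls relative to their spread. Per1 was at 13.8, 10.7 and 9.51 FPKM in the control libraries and 14.4, 10.5 and 15.4 in Smad4 KO, and the groups overlap (log2 fold change 0.23, SE 0.19, limma adjusted p = 0.556). Per1 double mutant values were 14.6, 11.7 and 11.6 FPKM against 14.2, 11.3 and 9.92 (0.10, SE 0.16, limma adjusted p = 0.688). Per1 did not share the library order of the other repressor-phase genes, since Smad4 KO 2 and double mutant 0 were the highest libraries of their groups. Per3 was at 5.75, 1.87 and 6.59 FPKM in the control libraries and 7.53, 3.77 and 3.02 in Smad4 KO (log2 fold change 0.05, SE 0.46, limma adjusted p = 0.965). Double mutant libraries had 2.86, 2.04 and 3.91 FPKM of Per3 against 5.92, 1.98 and 6.88 (-0.50, SE 0.40, limma adjusted p = 0.408). Control 1 is the lowest library of all for Per3 in both tables, and the groups overlap. Without it the double mutant log2 fold change of Per3 was -0.93 (limma adjusted p = 0.0620), and without control 2 it was -0.23 (0.723). Per3 overlaps Uts2 in RefSeq's annotation, so the limit given for Nr1d1 and Thra applies to Per3 too. Values of Uts2 are not given here.

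The activators had lower means in both mutant groups, and none passed the test. Arntl was at 8.35, 16.2 and 9.25 FPKM in the control libraries and 5.31, 7.41 and 9.97 in Smad4 KO (log2 fold change -0.50, SE 0.30, limma adjusted p = 0.416). Arntl double mutant values were 9.76, 10.5 and 6.57 FPKM against 8.61, 17.1 and 9.65 (-0.33, SE 0.28, limma adjusted p = 0.435). Control 1 is far above every other library, and the remaining controls lie among the mutant libraries. Without control 1 the log2 fold change of Arntl was -0.23 in Smad4 KO (limma adjusted p = 0.730) and -0.049 in the double mutant (0.887), without double mutant 2 it was -0.15 (0.784), and without control 0 -0.51 (0.280).

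Npas2, the relative of Clock that also pairs with Arntl, was at 3.95, 5.87 and 3.98 FPKM in the control libraries and 3.48, 2.62 and 3.46 in Smad4 KO, with a log2 fold change of -0.41 (SE 0.19, limma adjusted p = 0.299). In the double mutant it was at 3.76, 2.59 and 2.85 FPKM against 4.07, 6.22 and 4.15 (-0.51, SE 0.19, limma adjusted p = 0.112). Every mutant library lies below every control in both tables, by a narrow gap. Clock was at 14.1, 17.0 and 14.0 FPKM in the control libraries and 12.2, 13.8 and 10.6 in Smad4 KO, without overlap (-0.29, SE 0.14, limma adjusted p = 0.307). Double mutant libraries had 10.4, 15.1 and 12.4 FPKM of Clock against 14.6, 18.0 and 14.6, and the groups overlap (-0.31, SE 0.16, limma adjusted p = 0.207).

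**Figure D4:**
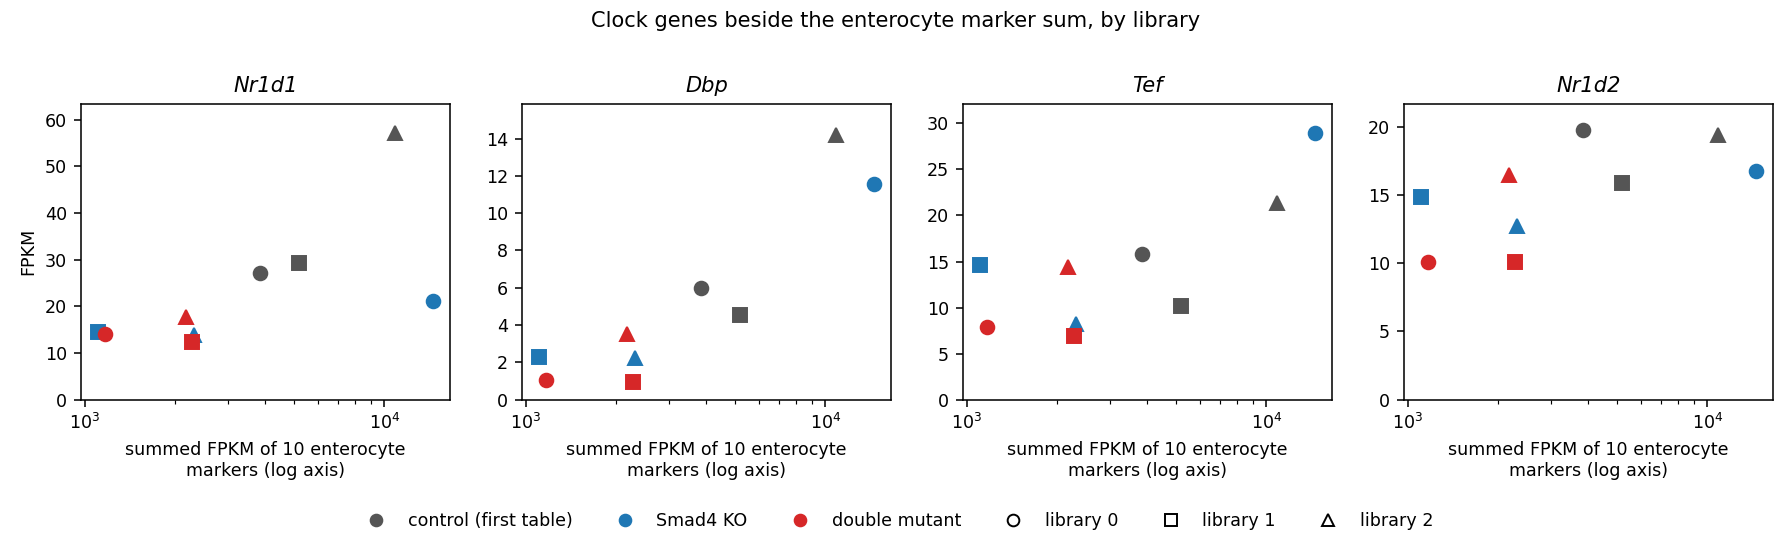
Level of Nr1d1, Dbp, Tef and Nr1d2 in FPKM (y axis, linear) against the summed level of 10 enterocyte markers in FPKM (x axis, log scale) in each library, with control and Smad4 KO values from the first table and double mutant values from the second. Control 2 is the highest control on both axes for Nr1d1, Dbp and Tef, and Smad4 KO 0, the point farthest to the right of its table, lies below the controls for Nr1d1 but not for Tef.

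The wider clock machinery was described with a list of 26 further genes, 19 loop partners or modifiers and 7 clock-controlled outputs, of which 21 passed the filter on low values and 5 (Rora, Rorb, Bhlhe41, Hlf and Fbxl21) did not. In the double mutant 7 of the 21 passed the limma test, 3 higher and 4 lower, against 18.5% of all genes, and 10 had an unadjusted p below 0.05, against 36.6%. The median log2 fold change of the 21 was 0.07. For the Smad4 KO comparison the limma test passed 0 of the 21, against 0.0338% of all genes, and 7 had an unadjusted p below 0.05, against 19.1%. The median there was 0.02.

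The genes that fell in the double mutant included Usp2, a deubiquitinase that is a rhythmic output in many tissues. It was at 14.2, 14.1 and 23.0 FPKM in the control libraries and 4.65, 5.84 and 5.87 in the double mutant, with no overlap (log2 fold change -1.46, SE 0.21, limma adjusted p = 0.0141). Tsc22d3, the glucocorticoid-induced leucine zipper gene, fell by 1.20 on the log2 scale (SE 0.24, limma adjusted p = 0.0270).

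The 3 that rose in the double mutant were Timeless, Tipin and Tspan4. Timeless and Tipin encode partners in a complex that protects DNA replication forks, so the mammalian pair is better known for replication than for the clock. Timeless was at 6.57, 6.11 and 5.82 FPKM in the control libraries and 9.55, 9.38 and 11.0 in the double mutant (log2 fold change 0.61, SE 0.10, limma adjusted p = 0.0182). Tipin rose by 0.63 (SE 0.14, limma adjusted p = 0.0356) and Tspan4, a tetraspanin gene, by 0.70 (SE 0.17, limma adjusted p = 0.0378).

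These calls depend on single libraries and on the filter. Without double mutant 0 none of the 7 passed (limma adjusted p from 0.0555 to 0.112), and without double mutant 2 none passed (0.0701 to 0.120). The number that passed was 3 without double mutant 1, 5 without control 0, and 4 without control 1 or without control 2. Usp2 and Timeless passed in 4 of these 6 fits, Tipin and Tsc22d3 in 1, and Tspan4 in 0, where its adjusted p was between 0.0549 and 0.112. With no filter on low values Tipin (limma adjusted p = 0.0572) and Tspan4 (0.0673) did not pass.

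In Smad4 KO, Usp2, Cry1 and Timeless were among the 4 with the smallest p, and none passed. Cry1, the partner of the PER proteins, was at 5.63, 3.07 and 3.58 FPKM in the control libraries and 9.11, 8.19 and 7.61 in Smad4 KO, all above the controls (log2 fold change 0.90, SE 0.20, limma adjusted p = 0.134). Double mutant Cry1 was at 5.86, 5.56 and 6.83 FPKM against 5.80, 3.25 and 3.74 (0.45, limma adjusted p = 0.150). Cry1 and its partner Per2 thus both had higher means in both mutant groups, with neither called. Usp2 was at 7.38, 8.41 and 5.33 FPKM in Smad4 KO against 13.8, 13.3 and 22.1, also without overlap (-1.10, limma adjusted p = 0.130). Timeless had a log2 fold change of 0.53 (limma adjusted p = 0.142).

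**Figure D5:**
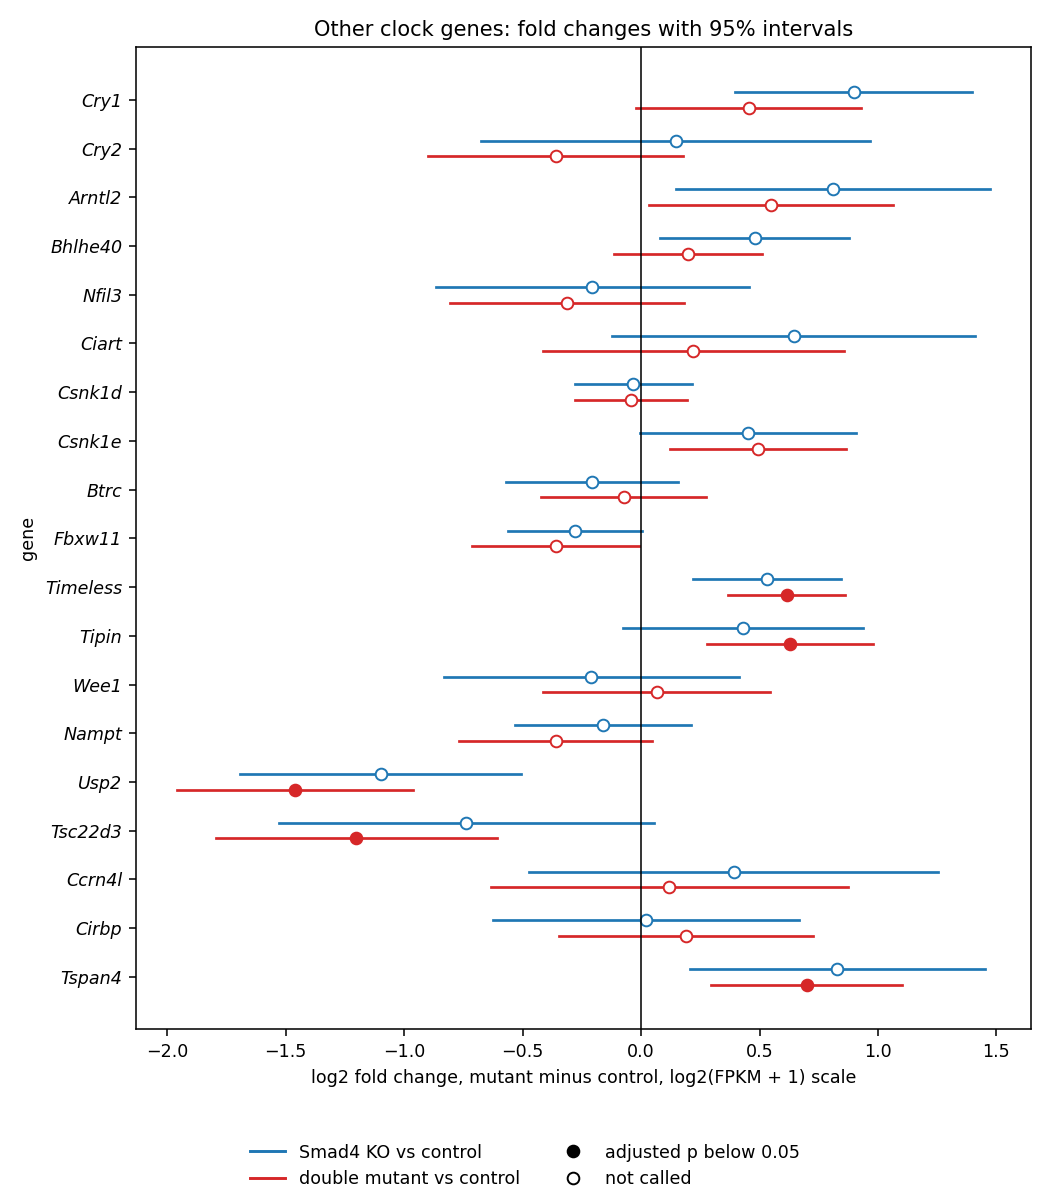
Log2 fold change of 19 of the 21 further clock genes tested, mutant minus control, on the log2(FPKM + 1) scale (x axis), for Smad4 KO and for the double mutant, with 95% intervals from limma (3 libraries per group); a filled point has an adjusted p below 0.05. In the double mutant 3 points to the right of 0 and 2 to the left are filled, and in Smad4 KO no point is.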

How the data were processed

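Messenger RNA was sequenced from jejunal crypts in 9 libraries, 3 per group, with a kit that does not mark strand. The submitters' processing notes name the mm9 build, Cuffdiff 2.2.1, Cuffnorm 2.2.1 and TopHat2 2.1.1, and the gene annotation used is not given in them. The deposited values are FPKM per gene, in 2 tables that the authors normalized separately. Sequencing depth is unknown, and an exact 0 is only a listed value.

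FPKM are not counts, so log2(FPKM + 1) was tested with limma 3.58.1 in R 4.3.3 (mean-variance trend, two-sided) on genes whose mean reached 1 FPKM or more. Each mutant was compared with the controls of its own table, p-values were adjusted by Benjamini-Hochberg over all genes tested, and calls were made below 0.05. The procedure was also run on simulated data with noise drawn independently for each gene and library, and nothing is concluded from that run here. The clock genes and every gene list were chosen with earlier results of these data known. All clock genes are named. Of the further clock genes, those called in either comparison and the 4 with the smallest p in each are named. The genes most like Arntl and Nr1d1 are the 5 with the highest smaller correlation of the 2 tables. Some genes that these rules select are not reported here. Thra, Sphk2 and Hlf were named after their values were seen. Alternatives were other pseudocounts, filters and scalings, limma without trend, a replicate block and leaving out each library.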

Additional observations from a re-analysis of the deposited data

How the results depend on the processing

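In Smad4 KO the number of clock genes called was 0 of 10, and of further clock genes 0 of 21, under every alternative. The count over all genes, 4, was 2 with a pseudocount of 5, 8 after quantile normalization and 5 to 16 when 1 library was left out. In the double mutant the 1 clock gene called became 2 with a pseudocount of 0.1 and 2 after quantile normalization (Nr1d1 and Dbp in both), 0 with no filter on low values, and 0 to 1 without 1 library. The count of further clock genes called, 7, became 4 with no filter and 0 to 7 without 1 library, where the 7 called without control 0 include Cry1 and Csnk1e in place of Tipin and Tspan4. The 2173 genes called in all became 1392 with no filter and 30 to 1555 without 1 library, where fewer samples remain. The direction changed for Tef in Smad4 KO under median-of-ratios scaling (log2 fold change -0.019) and Per3 in Smad4 KO under quantile normalization (-0.017). Without 1 library the log2 fold change ran from -0.43 to 0.42 for Tef and -0.39 to 0.31 for Per3 in Smad4 KO, and from -0.013 to 0.23 for Per1 in the double mutant. The cause of these changes was not tested. A filter at a mean of 5 FPKM left out Npas2, Per3 and Tspan4, so it gave no value for them.

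Labels number the libraries 0 to 2 in each group, but do not say that a number marks a shared animal or day. The deviations of same-numbered libraries correlated at -0.11, 0.22 and -0.10 in the first table and 0.07, 0.13 and 0.04 in the second, so the numbers were not taken to pair the samples. In the second table every library correlated best with its own number, a hint from the data and not the design. With a replicate block the counts were 1 of all genes in Smad4 KO and 3 clock genes in the double mutant, Nr1d1, Dbp and Tef, with limma adjusted p of 0.0328, 0.0254 and 0.0385. Tipin (0.0538) and Tsc22d3 (0.0603) were not called with the block.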

Other observations

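Hlf, the remaining PAR bZIP gene, was below the filter on low values and was not tested. It was at 0.822, 0.431 and 2.03 FPKM in controls 0, 1 and 2 of the second table and at 0.118, 0.0736 and 0.187 in the double mutant. In the first table it was at 0.797, 0.407 and 1.95 FPKM in the control libraries and 0.495, 0.183 and 0.251 in Smad4 KO. The double mutant libraries all lie below the controls, as those of Dbp do, and Smad4 KO 0 lies among the controls. Among controls, control 2 is the highest and control 1 the lowest for Hlf, the order that Dbp and Tef also show.

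The genes whose levels most resembled those of Arntl and Nr1d1 were found among 11662 genes, by Pearson correlation of log2(FPKM + 1) over the 6 libraries of each table. The libraries share the 3 controls between tables, and the correlations are a description with no test. For Arntl they were Bri3 (0.950 and 0.952, first and second table), Gkap1 (0.975 and 0.943), Kiz (0.940 and 0.978), Atp5e (0.950 and 0.939) and Rnf125 (0.979 and 0.922). No clock gene was among them. Per2 ran opposite to Arntl in both tables (-0.959 and -0.958), and Npas2 ran with it (0.767 and 0.744). For Nr1d1 the nearest genes included Mau2 (0.984 and 0.995), Fam132a (0.980 and 0.990), Cubn (0.976 and 0.991) and Ogfod3 (0.978 and 0.974). Of the clock genes, Dbp correlated with Nr1d1 at 0.790 and 0.967, Nr1d2 at 0.793 and 0.837, and Tef at 0.404 and 0.851.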
